A study of Mus musculus with 20 samples.

Results

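A group of 8 genes of hepatic glucose, fructose, glycogen and urate handling was followed through 3 histone marks in fasted mouse liver: Slc2a2, Slc2a9, Gckr, Pklr, Pfkfb1, Khk, Gys2 and Pygl. The group was defined by gene name, with earlier results of these data known. It holds 8 of the 21896 protein-coding genes in the RefSeq table. A region belonged to a gene when the midpoint of a deposited consensus interval (a stretch merged over libraries) lay in the gene body or within 10 kb of it. By this rule the genes held 49 of 65776 H3K27ac intervals, 99 of 103014 H3K4me1 intervals and 56 of 46568 H3K9ac intervals. H3K27ac marks active promoters and enhancers, H3K4me1 marks enhancers whether active or poised, and H3K9ac marks active promoters and their surroundings.

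All livers came from 9-week-old male C57BL/6 mice after a fast of 24 h. The groups were wild type (WT), a liver knockout of Cpt2 (Cpt2 L-/-), a knockout of Ppara (Ppara -/-), and the double knockout (Cpt2 L-/- ; Ppara -/-). Each had 2 livers for H3K27ac and 2 for H3K4me1, while H3K9ac was profiled in 1 WT and 1 Cpt2 L-/- liver. Ppara is the nuclear receptor that drives the hepatic fasting programme, and Cpt2 completes the entry of long-chain fatty acids into mitochondria for oxidation. Ppara-null below means the Ppara -/- and double knockout livers and Cpt2-null means the Cpt2 L-/- and double knockout livers, 4 of each against 4 intact. The loss of Ppara was in all cells and that of Cpt2 in liver, per the labels, and the Cre driver is not given in the sources used here. Fed livers were not part of the series. Whole liver was used, so fewer cells of a type and less of a mark per cell cannot be told apart.

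Glucose crosses the hepatocyte membrane through GLUT2, the product of Slc2a2, in both directions. Inside the cell it is phosphorylated by glucokinase, which the protein encoded by Gckr holds in the nucleus during fasting. Flux through glycolysis is set by fructose 2,6-bisphosphate, made and broken down by the bifunctional enzyme of Pfkfb1, and by liver pyruvate kinase, encoded by Pklr. Khk encodes ketohexokinase, the first enzyme of fructose use. Gys2 encodes the liver glycogen synthase and Pygl the liver glycogen phosphorylase. Slc2a9 encodes GLUT9, a urate transporter of the glucose transporter family that brings urate into hepatocytes for breakdown by uricase.

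RefSeq (GRCm38.p6) listed 11 start sites for 7 of the genes; Gys2 had none in the table. Of the 11 promoter windows, each from 250 bases before to 50 bases after a start site, 9 overlapped an H3K27ac interval of their gene. The windows of Slc2a9 and of the first listed Pfkfb1 start site did not. The windows of Slc2a2, Pklr and Khk are shown as examples that lie under an H3K27ac interval called in every library and carry letters searched. Others of this kind, those of Gckr and Pygl among them, are not shown. The Slc2a9 window is shown as the one listed promoter of its gene and lies outside its H3K27ac. Capitals mark matches on either strand to CACGTG (the E-box, bound by factors of the ChREBP and USF type), its shorter form CACG, the single nuclear receptor site AGGTCA, the core GTTAAT of the HNF1 site, or the TATA box letters TATAAA. No member window held the direct repeat of nuclear receptor sites spaced by 1 base, the forkhead site TGTTTAC or the C/EBP site TTGCNNCAA.

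Slc2a2, plus strand, chr3:28697653-28697952: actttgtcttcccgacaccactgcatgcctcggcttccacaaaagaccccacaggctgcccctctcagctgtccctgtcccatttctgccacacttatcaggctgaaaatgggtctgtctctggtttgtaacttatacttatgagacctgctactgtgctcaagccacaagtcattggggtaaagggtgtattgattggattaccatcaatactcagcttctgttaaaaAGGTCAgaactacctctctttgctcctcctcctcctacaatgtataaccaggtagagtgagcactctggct
Slc2a9, minus strand, chr5:38483336-38483635: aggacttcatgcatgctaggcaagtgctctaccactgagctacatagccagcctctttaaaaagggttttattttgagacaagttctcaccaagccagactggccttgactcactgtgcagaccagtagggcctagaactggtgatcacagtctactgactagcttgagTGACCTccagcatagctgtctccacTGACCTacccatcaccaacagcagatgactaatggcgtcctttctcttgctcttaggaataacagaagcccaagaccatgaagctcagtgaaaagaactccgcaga
Pklr second start site, plus strand, chr3:89136373-89136672: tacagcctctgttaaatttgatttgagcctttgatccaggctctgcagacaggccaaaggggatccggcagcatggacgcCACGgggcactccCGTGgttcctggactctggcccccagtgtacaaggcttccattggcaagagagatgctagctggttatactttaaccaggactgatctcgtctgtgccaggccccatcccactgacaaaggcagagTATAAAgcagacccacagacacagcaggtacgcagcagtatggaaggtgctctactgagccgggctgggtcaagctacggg
Khk, plus strand, chr5:30921309-30921608: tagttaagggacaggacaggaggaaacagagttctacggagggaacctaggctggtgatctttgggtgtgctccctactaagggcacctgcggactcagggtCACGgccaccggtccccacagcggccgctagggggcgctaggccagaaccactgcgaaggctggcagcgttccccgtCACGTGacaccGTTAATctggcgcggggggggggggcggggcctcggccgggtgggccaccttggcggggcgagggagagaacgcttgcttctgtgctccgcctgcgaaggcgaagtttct

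The Pklr window held one CACG on each strand, with first bases at -170 and -157 from the start site, and a TATAAA at -31. Khk held the sole CACGTG of the 11 windows, at -71, and a GTTAAT at -60. The E-box stood in 7.15% of 32851 RefSeq promoter windows of the same length, and the shorter CACG in 61.7% of them and in 6 of the 11 here. AGGTCA was present in 5 of the 11 windows and in 16.3% of all windows; 2 copies stood in Slc2a9, at -81 and -56, and 1 in Slc2a2, at -21. GTTAAT stood in 3 of the 11 windows (Gckr, Khk and 1 of the 4 Pfkfb1 windows) and in 7.10% of all, and TATAAA in 2 of the 11 and in 13.6% of all. The direct repeat, TGTTTAC and TTGCNNCAA stood in 0.381%, 3.65% and 2.08% of all windows. That direct repeat is the kind of site that Ppara binds with its partner Rxr. These are matches of letters only, on both strands, with CACG also counted inside a full E-box.

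The value of an interval in a library is the fold enrichment over background of the highest peak overlapping it, as the authors' peak caller gave it; where no peak overlapped, the interval was not called. The lists hold peaks and no read counts, so depth is unknown. The 8 H3K27ac lists held 44454 to 48929 peaks and the 8 H3K4me1 lists 61189 to 72151. Of the genes' H3K27ac intervals, 19 of 49 were called in all 8 libraries, against 27.8% of all consensus intervals. For H3K4me1 it was 26 of 99, against 19% of all. Genotype effects were tested with limma at the intervals called in all 8 libraries, on log2 fold centred in each library, with p-values adjusted over 18281 H3K27ac or 19526 H3K4me1 intervals. A difference is null minus intact on that log2 scale, given with its standard error (SE). Folds printed for single livers are not centred, so their order can differ from that of the tested values. All 8 hepatocyte marker genes, Alb and Hnf4a among them, had an H3K27ac call in all 8 libraries, and 5 of 6 cholangiocyte markers (Krt19, Krt7, Epcam, Spp1 and Cftr) had none in any. The sixth, Sox9, had folds of 12.5 and 19.7 in WT, no call in Cpt2 L-/-, and 5.81 to 9.57 in the other 4 livers; its part in the results below was not tested.

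The strongest change of any member was at Slc2a9. Its leading H3K27ac interval (the one with the highest mean log2 fold among those called in all 8 libraries) was chr5:38488771-38491968, inside the gene body, with its midpoint at -6984 bases from the listed start site. The fold was 18.7 and 29.8 in WT, 15.1 and 15.3 in Cpt2 L-/-, 17.6 and 20.4 in Ppara -/-, and 3.18 and 4.72 in the double knockout. Both double knockout livers lay far below the other 6, which had folds of 15.1 or more. The order of the means was WT, Ppara -/-, Cpt2 L-/-, double knockout; WT and Ppara -/- overlapped, and neither single knockout overlapped the double knockout. H3K27ac fell by 1.18 (log2, SE 0.18) without Ppara, adjusted p = 0.00214, and fell by 1.73 (SE 0.18) without Cpt2, adjusted p = 0.000855. The interaction, which asks whether the loss of both differs from the sum of the single losses, was -1.74 (SE 0.35) with an adjusted p of 0.0882 and did not pass. The interaction passed at 1 interval in the series (0.00547% of those tested) and at 0 of the 19 members, of which 2 had an unadjusted p under 0.05, against 15.2% of all intervals. With the smallest peak width of each library as a covariate, the Cpt2 difference was -1.57 with an adjusted p of 0.575. That width did not overlap between Cpt2 states, so this fit can hardly separate it from Cpt2 loss.

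Of the 3 H3K4me1 intervals under the same stretch, chr5:38488662-38489701 was called in every library. Its fold was 5.14 and 7.21 in WT, 6.32 and 5.87 in Cpt2 L-/-, 3.15 and 6.72 in Ppara -/-, and 6.44 and 7.59 in the double knockout. The double knockout livers lay within or above the range of the others, and no effect passed (adjusted p = 0.878 for Ppara and 0.674 for Cpt2). The other intervals had no WT call: chr5:38489791-38490747 was called in 1 Cpt2 L-/-, 1 Ppara -/- and 1 double knockout liver (3.57 to 5.51), and chr5:38490826-38491296 in 1 Cpt2 L-/- liver (5.47) and 1 Ppara -/- liver (4.0). H3K9ac was called over the stretch in both its livers, as 1 interval of 3356 bases. The other Slc2a9 H3K27ac interval called in all 8 libraries, chr5:38479670-38480348, had folds of 9.81 to 12.3 in the 6 livers outside the double knockout and 6.25 and 9.50 in the double knockout; no effect passed there (adjusted p = 0.112 and 0.0906). There were 4 H3K4me1 intervals between the listed start site and the acetylated stretch with calls in both WT livers. One of them, chr5:38487282-38488309, was called in the WT livers (10.5 and 10.1), 1 Cpt2 L-/- liver (8.54) and 1 Ppara -/- liver (6.53). It was called in neither double knockout liver, nor in the other liver of each single knockout. The livers with a call were those whose H3K4me1 lists covered the most sequence, 52.5 to 53.5 Mb. Lists of the livers without one covered 38.8 to 46.0 Mb. The part of list coverage in this pattern was not tested.

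**Figure D1:**
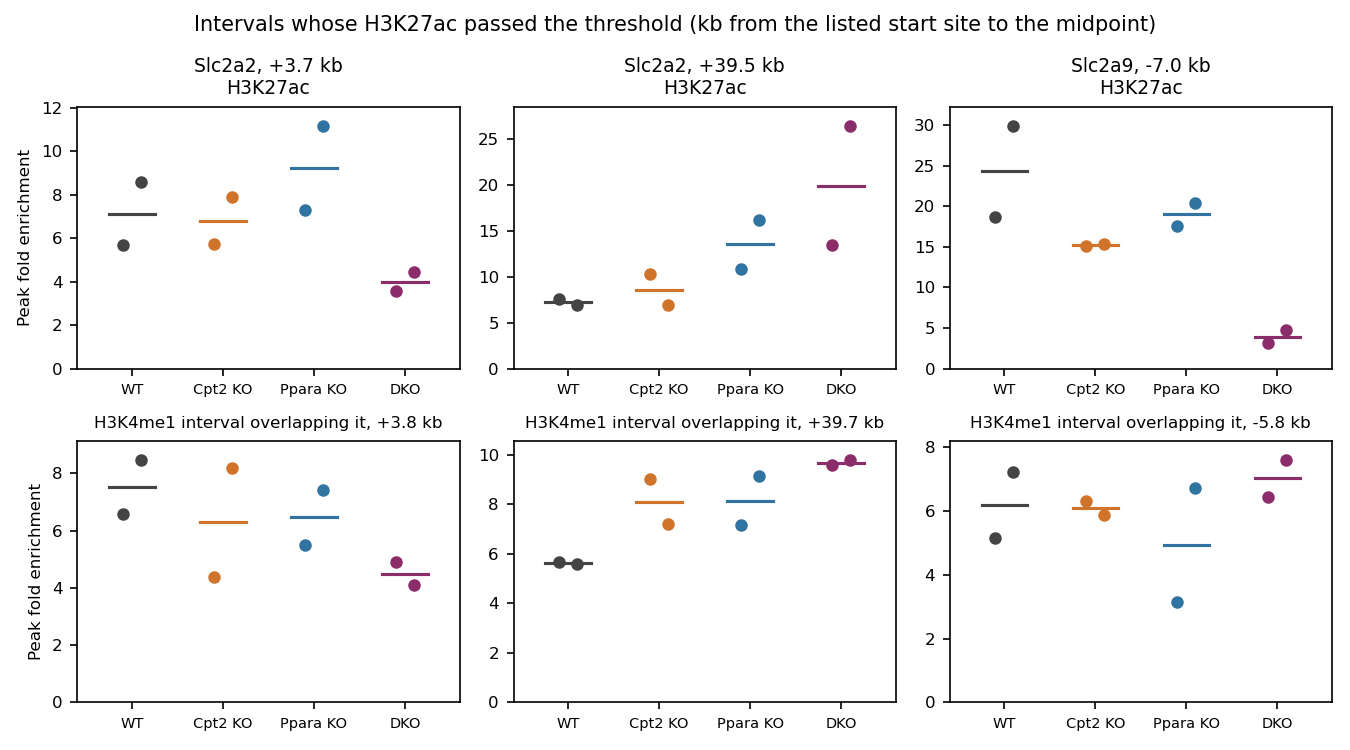
Peak fold enrichment (y axis) by genotype (x axis; points are livers, lines are means) at the 3 intervals whose H3K27ac passed the threshold, with an overlapping H3K4me1 interval below each. At Slc2a9 the double knockout H3K27ac values of 3.18 and 4.72 sit below all other livers, while H3K4me1 in those livers is 6.44 and 7.59.

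Slc2a2 had the longest stretch under H3K27ac peaks of the 8 genes in each of the 8 libraries, and in the 4 Cpt2-intact livers it was a nearly unbroken run from before the start site to the end of the gene. Its leading interval, chr3:28694952-28700333, covered the start site. The fold of this interval was 14.5 and 21.4 in WT, 18.6 and 16.4 in Cpt2 L-/-, 16.0 and 20.6 in Ppara -/-, and 14.4 and 17.2 in the double knockout. The 4 groups overlapped and no effect passed (adjusted p = 0.782 for Ppara and 0.109 for Cpt2). The intervals of this gene that passed lay outside the promoter interval, where the Cpt2 difference was -0.38 (SE 0.15).

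Inside the gene, the H3K27ac fold of chr3:28700407-28702885 (midpoint 3742 bases past the start site) was 5.70 and 8.57 in WT, 5.75 and 7.88 in Cpt2 L-/-, 7.29 and 11.1 in Ppara -/-, and 3.56 and 4.44 in the double knockout. WT and Cpt2 L-/- had like values and the double knockout was lowest. Averaged over both Ppara states, H3K27ac fell by 0.88 (SE 0.21) without Cpt2, adjusted p = 0.0196 by limma. The Ppara difference of -0.23 did not pass (adjusted p = 0.561), nor did the interaction of -1.21 (SE 0.42, adjusted p = 0.214). Centred log2 means were -0.60 in WT, -0.88 in Cpt2 L-/-, -0.23 in Ppara -/- and -1.72 in the double knockout. The call was lost without WT replicate 2 (adjusted p = 0.0561), Cpt2 L-/- replicate 1 (0.0862), Ppara -/- replicate 2 (0.0750) or double knockout replicate 1 (0.0501), without centring (0.0503) and with the peak width covariate (0.781). The next interval, chr3:28703258-28704205, was called in the 4 Cpt2-intact livers alone, at 7.62 and 10.3 in WT and 5.79 and 8.22 in Ppara -/-. It was the single member interval with that pattern, which 0.826% of all H3K27ac intervals had; its H3K4me1 counterpart, chr3:28703221-28704202, was called in those 4 livers (5.30 to 8.04) and in 1 Cpt2 L-/- liver (6.60).

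Beyond the gene, the midpoint of chr3:28736076-28738824 lay 9088 bases past the end of Slc2a2, and the nearest listed start site was still that of Slc2a2. Its H3K27ac fold was 7.57 and 6.88 in WT, 10.2 and 6.92 in Cpt2 L-/-, 10.9 and 16.2 in Ppara -/-, and 13.4 and 26.3 in the double knockout. All 4 Ppara-null livers were above all 4 Ppara-intact livers. H3K27ac rose by 0.99 (SE 0.21) without Ppara, adjusted p = 0.0152, while the Cpt2 difference was 0.10 (adjusted p = 0.795). Leaving out replicate 2 of any genotype ended the call (adjusted p 0.0585 without WT, 0.0716 without Cpt2 L-/-, 0.0650 without Ppara -/- and 0.0635 without the double knockout replicate 2). H3K4me1 there, chr3:28736132-28739015, gave 5.67 and 5.57 in WT and 7.14 to 9.78 in the other 6 livers, and neither effect passed (adjusted p = 0.372 and 0.521).

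Counted over the genes, H3K27ac without Ppara was higher at 1 of 19 intervals and lower at 1, against 3.19% and 4.15% of all intervals. Without Cpt2 it was higher at 0 and lower at 2 of 19, against 4.9% and 7.38%. At an unadjusted p under 0.05 there were 7 of 19 for each effect, against 23.1% and 30.1% of all intervals. The median Cpt2 difference was -0.32 over the 19 and -0.01 over all intervals, and the median Ppara difference was -0.05 and -0.01. Without centring, the Cpt2 median of all intervals moved to 0.25 and that of the 19 to -0.06, and the calls over all intervals went from 896 higher and 1349 lower to 3504 and 432. The calls among the 19 then held Slc2a9 as lower, with Gys2 (0.70) and Pfkfb1 (0.58) as higher at their leading intervals.

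Peak width and the H3K27ac of cell type markers also differed between Cpt2 states. The smallest H3K27ac peak was 198 to 210 bases wide in the 4 Cpt2-intact and 217 to 223 in the 4 Cpt2-null libraries, and with it as a covariate no Cpt2 call was left among the 19 or among all intervals. These widths did not overlap, so that fit can hardly separate width from Cpt2 state, and its lost calls decide neither way. The summed H3K27ac fold of the 6 endothelial markers was 78.7 to 95.8 in Cpt2-intact and 119 to 133 in Cpt2-null livers, and that of the 6 Kupffer cell markers was 35.8 to 40.8 and 47.4 to 91.4. For the 6 stellate cell markers it was 21.5 to 30.6 and 45.8 to 63.1, and for the 8 hepatocyte markers 156 to 182 and 162 to 229. Of these lists, 6 of 6 endothelial, 3 of 6 Kupffer cell and 3 of 6 stellate cell markers were called in all 8 libraries. The sums are of folds that were not centred, and uncalled markers add nothing to them. The median H3K27ac fold of all peaks was itself 6.69 to 7.17 in Cpt2-intact and 7.42 to 8.21 in Cpt2-null libraries. The part of peak width and of these markers in the Cpt2 results was not tested beyond the covariate.

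**Figure D2:**
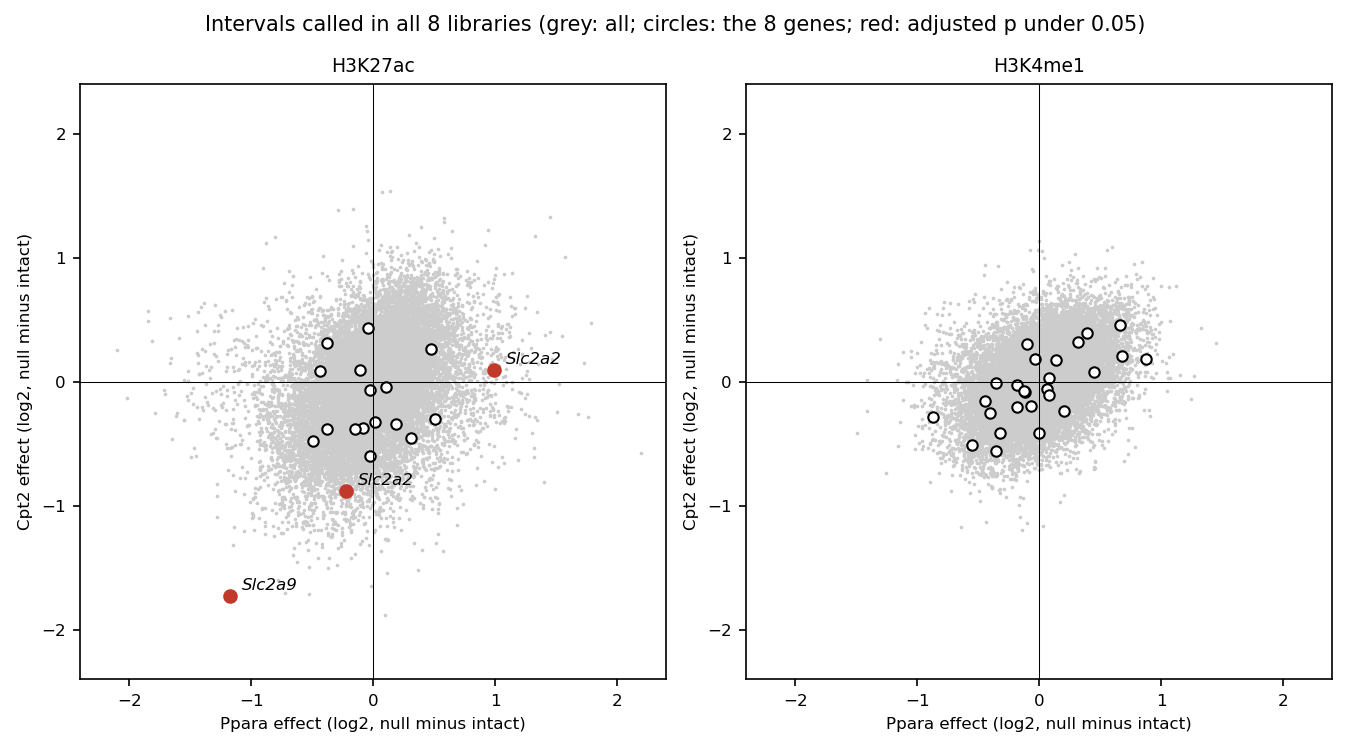
Ppara effect (x axis) against Cpt2 effect (y axis), both as log2 differences of null minus intact livers, for H3K27ac and H3K4me1; grey points are all intervals called in 8 libraries, circles are those of the 8 genes and red ones have an adjusted p under 0.05. Slc2a9 sits at -1.18 and -1.73, and the 2 red Slc2a2 intervals sit at 0.99 on the Ppara axis and -0.88 on the Cpt2 axis.

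At the glycolytic genes an H3K27ac interval that covered a listed start site was called in every library. A call means a peak somewhere in that interval, which need not lie over the start site. At Pklr, the leading interval chr3:89135798-89137969 covered the start sites and the window printed above. Its fold was 7.78 and 11.7 in WT, 7.62 and 9.50 in Cpt2 L-/-, 6.00 and 8.71 in Ppara -/-, and 5.60 and 8.50 in the double knockout. The groups overlapped, and the differences of -0.38 without Ppara (adjusted p = 0.289) and -0.38 without Cpt2 (adjusted p = 0.227) did not pass. A second interval before the gene, chr3:89133058-89135626, was called in both WT livers (10.2 and 10.8) and in 4 of the 6 knockout livers (3.88 to 9.00).

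Pfkfb1 had the highest H3K27ac fold of the 8 genes. Its leading interval, chrX:150591450-150596433, covered the fourth listed start site. The fold of this interval was 21.0 and 20.5 in WT, 31.9 and 28.2 in Cpt2 L-/-, 15.4 and 16.0 in Ppara -/-, and 22.9 and 26.0 in the double knockout. Replicates lay close together, both Ppara -/- livers were lowest and both Cpt2 L-/- livers highest. The Ppara difference was -0.38 (adjusted p = 0.0860) and the Cpt2 difference 0.32 (adjusted p = 0.112), neither past the threshold. Another interval, farther into the gene at chrX:150596964-150599800, had a Cpt2 difference of -0.60 (adjusted p = 0.0548), from 10.6 and 8.04 in WT, 9.59 and 10.0 in Ppara -/-, and 6.75 to 8.0 in the 4 Cpt2-null livers.

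The leading Gckr interval, chr5:31294039-31298177, covered the start sites of Gckr and of its neighbour Fndc4, so that its value cannot be assigned to either. The fold was 15.7 and 20.4 in WT, 20.5 and 13.4 in Cpt2 L-/-, 14.8 and 18.5 in Ppara -/-, and 11.2 and 20.6 in the double knockout. Livers of one genotype differed by as much as the genotypes did (adjusted p = 0.673 for Ppara and 0.176 for Cpt2). No Gckr H3K4me1 interval was called in all 8 libraries.

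Khk varied least at the leading H3K27ac interval, with a range of genotype means of 0.095 on the centred log2 scale. Its leading interval, chr5:30911499-30915903, had its midpoint 7734 bases before the gene, in the body of Emilin1, and covered the Emilin1 start site. Its fold was 15.6 to 21.4, and this value cannot be assigned to Khk. The interval over the Khk start site and most of the gene, chr5:30919572-30928532, was 8961 bases wide, and its fold measured 13.0 and 17.8 in WT, 12.1 and 13.5 in Cpt2 L-/-, 12.6 and 15.0 in Ppara -/-, and 14.2 and 16.0 in the double knockout. Both Cpt2 L-/- livers were below both double knockout livers, the other groups overlapped, and neither effect passed (adjusted p = 0.968 for Ppara and 0.185 for Cpt2). H3K4me1 in the gene body, chr5:30921807-30928506, was 12.3 and 16.1 in WT, 8.51 and 10.2 in Cpt2 L-/-, 5.93 and 6.62 in Ppara -/-, and 5.82 and 6.88 in the double knockout. All Ppara-null livers were below all Ppara-intact livers, and the difference of -0.87 (SE 0.19) had an adjusted p of 0.0838. This interval was singled out after its values were seen.

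**Figure D3:**
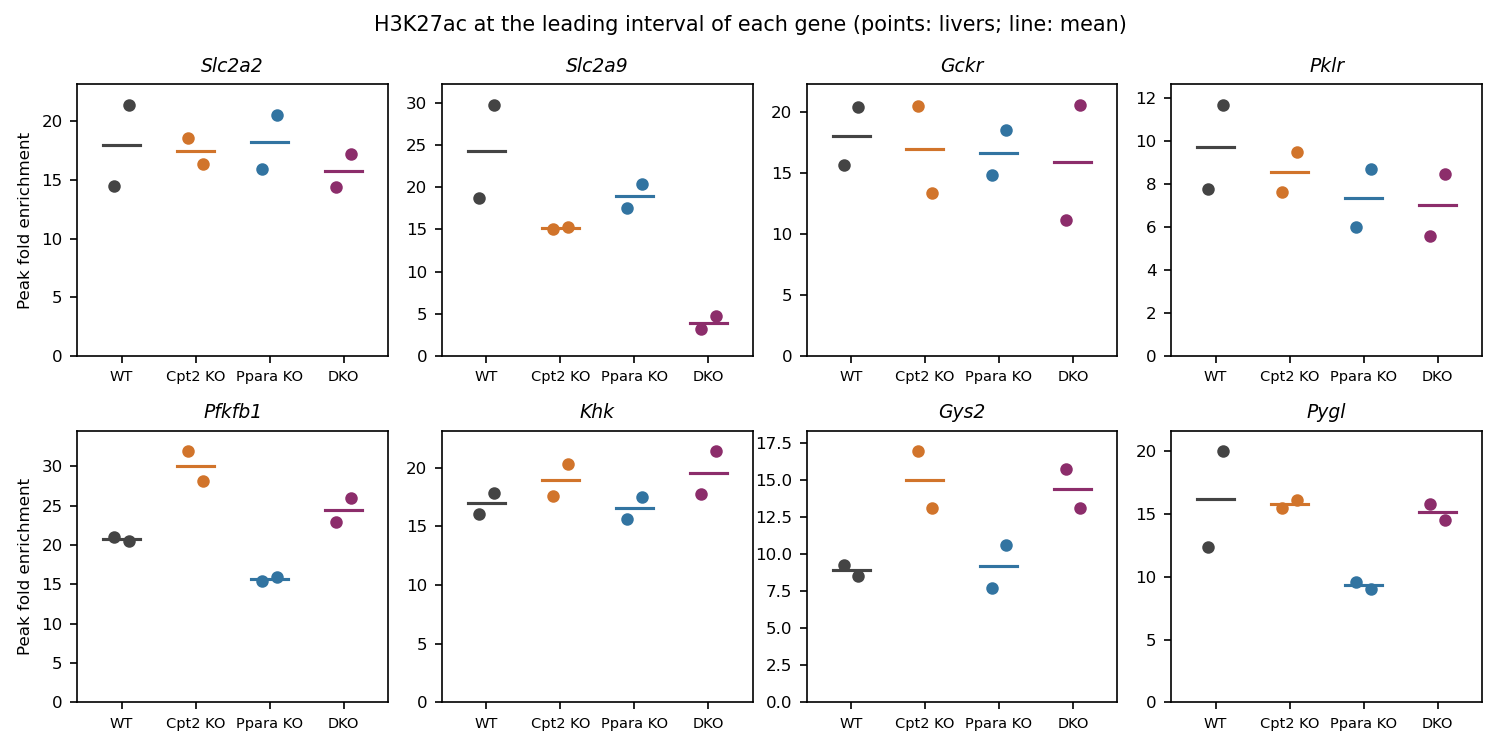
Peak fold enrichment of H3K27ac (y axis, from 0) at the leading interval of each gene by genotype (x axis); points are livers and lines are means of 2. The double knockout Slc2a9 values of 3.18 and 4.72 stand apart, whereas the leading interval of Khk, which covers the Emilin1 start site, spans 15.6 to 21.4.

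At Gys2, the leading interval chr6:142467270-142474274 spanned the right end of the gene body. Its fold was 9.29 and 8.50 in WT, 16.9 and 13.1 in Cpt2 L-/-, 7.71 and 10.6 in Ppara -/-, and 15.7 and 13.1 in the double knockout. All 4 Cpt2-null livers were above the 4 Cpt2-intact ones, and the difference of 0.44 (SE 0.19) did not pass (adjusted p = 0.131). Further into the gene lay a cluster of H3K27ac peaks that WT livers hardly had: 8 of the 10 Gys2 intervals had no WT call, as did 13 of the 49 member intervals and 37.7% of all. chr6:142450601-142451560 was called in neither WT liver, and at 14.9 and 8.45 in Cpt2 L-/-, 6.21 and 8.19 in Ppara -/-, and 6.62 and 9.47 in the double knockout. chr6:142451678-142453601 likewise had no WT call and folds of 6.20 to 9.94 in all 6 knockout livers. chr6:142458410-142461919 had a call of 4.40 in 1 WT liver and folds of 7.17 to 14.5 in the 6 knockout livers.

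Thus 2 member intervals, both of Gys2, were called in all 6 knockout and no WT library, as were 2.59% of all H3K27ac intervals. For H3K4me1 11 of 14 Gys2 intervals had no WT call, as did 32 of 99 member intervals and 40.8% of all, but 0 of the 99 had the full pattern (0.85% of all). H3K9ac was called over the right end of Gys2 in both its livers, in 3 intervals, and nowhere else in the gene.

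Pygl showed the reverse: peaks around its promoter that mostly only WT livers had. The leading interval, chr12:70224874-70228990, covered the start site. The fold of this interval was 12.4 and 20.0 in WT, 15.5 and 16.1 in Cpt2 L-/-, 9.59 and 9.04 in Ppara -/-, and 15.8 and 14.5 in the double knockout. Both Ppara -/- livers were lowest, and neither effect passed (Ppara difference -0.44, adjusted p = 0.147; Cpt2 0.09, adjusted p = 0.772). The other 6 Pygl intervals were all called in at least 1 WT liver, and 3 of them in both WT livers and no other library. Of the upstream intervals, chr12:70230893-70232794 was called in both WT livers, at 10.2 and 13.8, and at 4.83 in 1 double knockout liver, with no call in the other 5. chr12:70233921-70235474 had 9.13 and 9.60 in WT, 5.38 in 1 Ppara -/- liver and 8.18 in 1 double knockout liver. H3K4me1 over the same upstream stretch, chr12:70230900-70234637, was called in all 8 livers, at 12.5 and 15.2 in WT and 10.0 to 12.7 in the others, and no effect passed (adjusted p = 0.903 and 0.717).

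In all, 5 of the 49 H3K27ac intervals were called in both WT and no other library, against 3.29% of all; they were 3 of Pygl and 1 each of Slc2a2 and Slc2a9. For H3K4me1 it was 2 of 99 (1 each of Slc2a9 and Pklr), against 1.85%. These patterns were counted after the values were seen. No member H3K27ac interval was called in the 4 Ppara-null livers alone (0.632% of all), the 4 Ppara-intact livers alone (0.725%) or the 4 Cpt2-null livers alone (1.95%). No member H3K4me1 interval had one of the 4 patterns by Ppara or Cpt2 state, whose shares of all intervals were 0.385% for Ppara-null, 0.604% for Ppara-intact, 0.141% for Cpt2-null and 0.143% for Cpt2-intact.

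**Figure D4:**
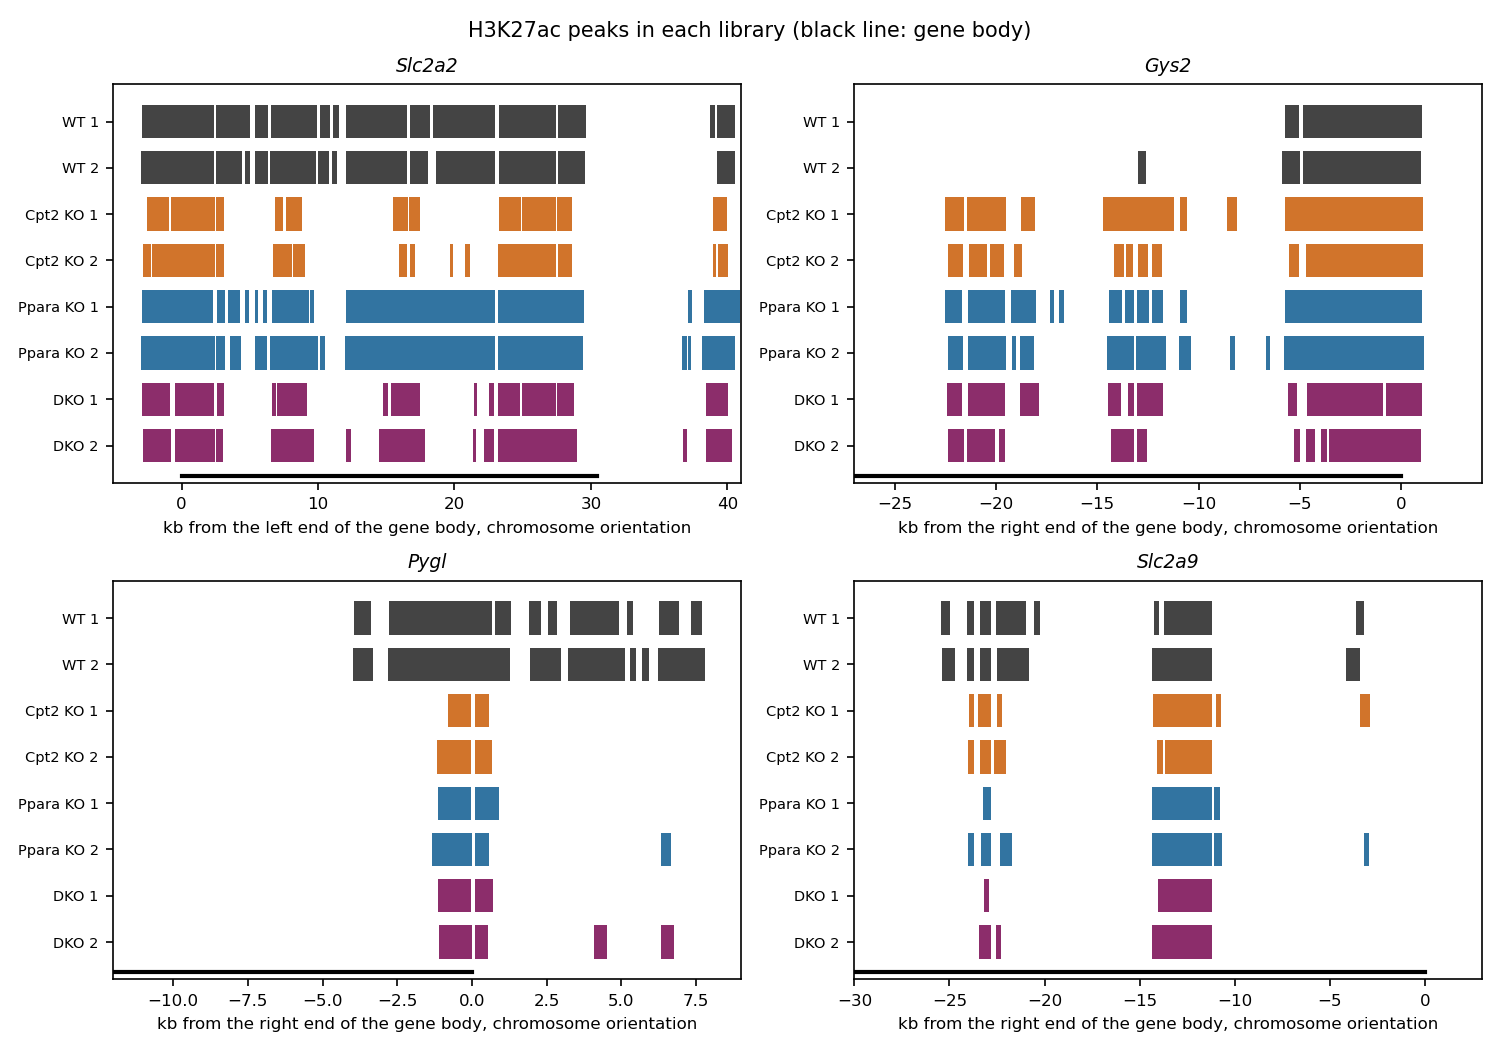
H3K27ac peaks (bars) in each of the 8 libraries (rows) along 4 genes; the x axis is the distance in kb from one end of the gene body, in chromosome orientation, and the black line is the gene body. The Slc2a2 run has wide gaps in the 4 Cpt2-null livers, bars inside Gys2 appear in the 6 knockout livers, and the outer Pygl bars are mostly those of the 2 WT livers.

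The length of sequence under peaks put these patterns on 1 scale. Over Slc2a2 and its surroundings H3K27ac peaks covered 30.4 to 31.8 kb in the 4 Cpt2-intact livers and 15.2 to 21.2 kb in the 4 Cpt2-null livers. H3K4me1 covered 20.2 to 21.9 kb and 11.5 to 16.1 kb. The groups did not overlap in either mark, and the Cpt2-null mean was 0.564 times the intact mean for H3K27ac and 0.613 times for H3K4me1. By Ppara state the ratios were 1.09 and 1.06. At Khk the H3K27ac length was 11.8 to 16.0 kb in Cpt2-intact and 7.10 to 9.83 kb in Cpt2-null livers, also without overlap. Each of these 3 separations had the smallest p that an exact permutation test of 4 against 4 livers can give, 0.0286, two-sided. Adjusted over all genes with a peak in all 8 libraries (Benjamini-Hochberg), that exact p was 0.134 for H3K27ac at Slc2a2 and Khk and 0.607 for H3K4me1 at Slc2a2, so none passed.

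Pygl had 8154 and 9710 bases under H3K27ac in WT and 1219 to 2432 in the 6 knockout livers, and Pklr 4402 and 4741 in WT and 820 to 3134 in the others. Gys2 had 6573 and 7096 bases in WT and 9657 to 14781 in the others. Both WT livers also lay above all 6 knockout livers at Slc2a9 (6553 and 7290 against at most 5279 bases), Gckr (5524 and 6364 against at most 4959) and Khk (15783 and 16037 against at most 12054). So H3K27ac length was lower in every knockout than in every WT liver at 5 of the 8 genes (20.2% of all genes) and higher at 1, Gys2 (12% of all). For H3K4me1 it was lower at 3, Slc2a9, Pklr and Pygl (12.2% of all), and higher at 1, Gys2 (5.58%). These counts were made after the values were seen, and the WT livers were not compared with the rest by a test.

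Across the 8 genes the median ratio of Cpt2-null to Cpt2-intact length was 0.590 for H3K27ac, beside 0.967 over the 11489 genes with a peak in all 8 libraries. For H3K4me1 it was 0.707, beside 0.877 over 9444 genes. The 8 genes were chosen with earlier results of these data known, so these ratios serve as a description. H3K27ac length was lower in every Cpt2-null than in every Cpt2-intact liver at 2 of the 8 genes (12.7% of all) and higher at 0 (8.56%), and for H3K4me1 at 1 (3.08%) and 0 (0.889%). By Ppara state 0 of 8 genes separated in either direction, against 10.4% of all for H3K27ac and 7.91% for H3K4me1. Without Ppara -/- replicate 1, or without double knockout replicate 2, the H3K27ac count of 2 became 4, and without Ppara -/- replicate 2 the Ppara count became 1. The H3K4me1 Ppara count of 0 became 3 without Cpt2 L-/- replicate 1, and 1 without WT replicate 1 or Ppara -/- replicate 1. The H3K4me1 count of 1 for Cpt2 became 3 without Cpt2 L-/- replicate 2 and 2 without Ppara -/- replicate 2. Over the whole genome H3K27ac peaks covered 44.8 to 47.8 Mb in Cpt2-intact and 42.0 to 44.9 Mb in Cpt2-null libraries, and H3K4me1 peaks 42.7 to 53.3 and 38.8 to 53.5 Mb.

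**Figure D5:**
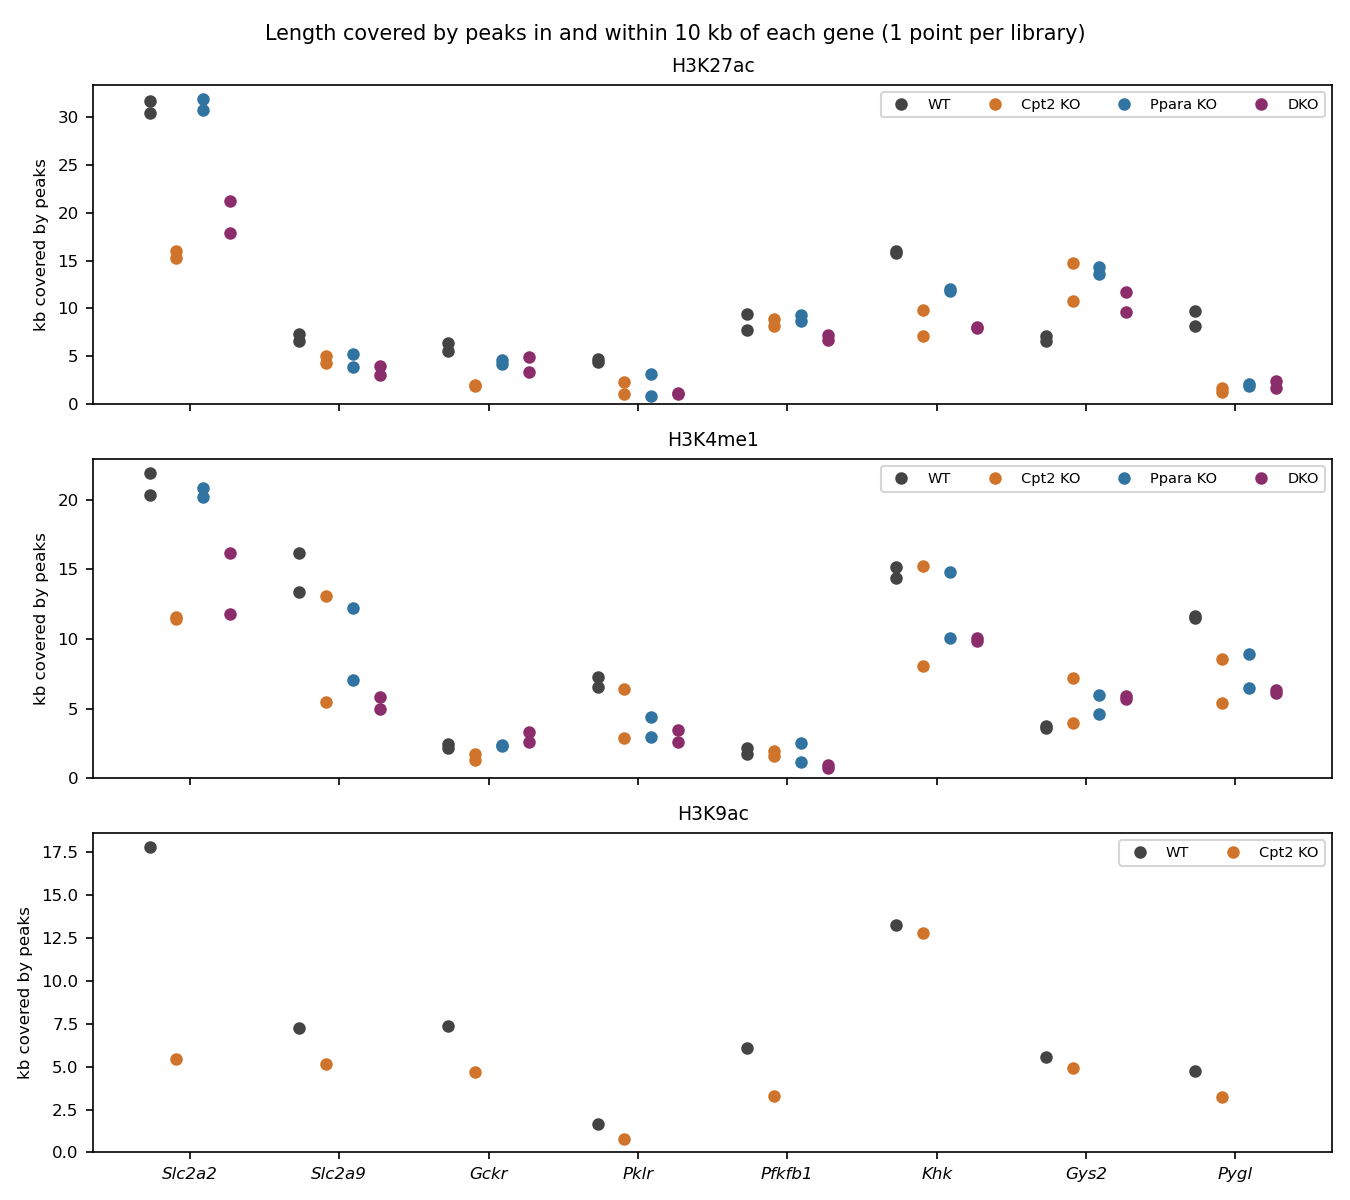
Length in kb covered by peaks in and within 10 kb of each gene (y axis, from 0) for 3 marks; each point is a library, coloured by genotype. Slc2a2 shows 30.4 to 31.8 kb of H3K27ac in Cpt2-intact livers and 15.2 to 21.2 kb in Cpt2-null livers, and Gys2 has its lowest H3K27ac values in WT.

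H3K9ac, from 1 liver per group and with no test, was called at 21 member intervals in both livers, at 35 in the WT liver only (20.8% of all H3K9ac intervals) and at 0 in the Cpt2 L-/- liver only (23.9%). Of the 35, 18 were intervals of Slc2a2, which had 4 shared ones. They were short, with a median of 367 bases against 1617 for the 21 shared ones; over the whole list the medians were 295 for WT only and 1020 for shared. The WT liver had 17794 bases under H3K9ac at Slc2a2 and the Cpt2 L-/- liver 5423. At Khk the lengths were 13288 and 12782. The WT liver had more at all 8 genes, while over the whole genome the 2 lists covered 37.5 and 37.4 Mb. Deposited H3K9ac blocks carry no fold, so heights were not compared.

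No H3K4me1 effect passed at any of the 26 member intervals by limma. For Ppara, 0.0461% of all intervals were higher and 0.0819% lower without the gene; for Cpt2 the shares were 0% and 0%, and for the interaction 0%. At an unadjusted p under 0.05 there were 5 of 26 for Ppara (13.9% of all), 1 for Cpt2 (9.81%) and 0 for the interaction (2.90%). Without Cpt2 L-/- replicate 1, whose list covered less than its partner's, 5 of 29 passed for Ppara and 1022 of 20516 in all. They were 2 Slc2a2 intervals and 1 of Slc2a9 as higher, and the Khk gene body and 1 Pygl interval as lower. The leading H3K4me1 intervals had adjusted p-values of 0.374 to 0.963 for Ppara and 0.717 to 0.899 for Cpt2.

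Other genes of the same pathways were read at their own leading interval. Of 31 further genes of glycolysis and glucose transport, 24 had one for H3K27ac. For Ppara 0 passed, and for Cpt2 1 was higher and 2 lower. Over all H3K27ac intervals tested, leading or not, 3.19% were higher and 4.15% lower without Ppara. Without Cpt2 the shares were 4.9% and 7.38%. Pkm, the pyruvate kinase of muscle and many other cells, rose by 0.67 (adjusted p = 0.0331), from 16.2 and 10.2 in WT and 16.6 and 13.7 in Ppara -/- to 22.1 to 31.7 in Cpt2-null livers. Mlxipl, which encodes the carbohydrate-responsive factor ChREBP that binds the Pklr promoter, fell by 0.81 (adjusted p = 0.0251), with 13.3 and 16.5 in WT, 8.45 and 9.70 in Cpt2 L-/-, 13.2 and 10.9 in Ppara -/-, and 6.56 and 13.0 in the double knockout. Ldha, a lactate dehydrogenase subunit, fell by 0.54 (adjusted p = 0.0277 by limma). Its leading interval had its midpoint 3693 bases outside the gene body, and its link to Ldha was not tested. The fold there was 23.8 and 26.2 in WT, 17.4 and 11.9 in Cpt2 L-/-, 24.3 and 21.4 in Ppara -/-, and 25.3 and 28.8 in the double knockout. The low Ldha values were those of the Cpt2 L-/- livers. In these uncentred folds the double knockout livers were above both Ppara -/- livers. Folds were higher in Cpt2-null libraries in general, so that order need not hold on the centred scale. The interaction of 0.95 did not pass (adjusted p = 0.163 by limma).

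Of 21 further glycogen genes 17 had a leading interval. Ppp1r3b, the liver subunit that directs a phosphatase to glycogen, fell by 0.67 without Cpt2 (adjusted p = 0.0285). In Ppp1r3b the fold was 17.0 and 14.4 in WT and 9.55 and 7.71 in Cpt2 L-/-. In Ppara -/- it was 11.9 and 11.4, within the double knockout values of 10.5 and 14.2, all as uncentred folds. The Cpt2 L-/- livers were lowest, and the interaction of 0.84 did not pass (adjusted p = 0.287 by limma). Of 11 further urate genes 9 had one. Xdh, which makes urate, rose by 0.54 without Ppara (adjusted p = 0.0421), with 8.0 and 9.60 in WT and 14.8 to 22.2 in every knockout. Abcg2, a urate exporter, fell by 0.85 without Ppara (adjusted p = 0.0427), with 21.9 and 13.6 in WT, 30.3 and 25.5 in Cpt2 L-/-, 6.57 and 14.7 in Ppara -/-, and 16.1 and 15.2 in the double knockout. Urad, which acts after uricase, fell by 1.02 without Cpt2 (adjusted p = 0.0222), with 8.18 and 11.0 in WT, 5.78 and 4.09 in Cpt2 L-/-, 18.1 and 8.09 in Ppara -/-, and 7.40 and 9.22 in the double knockout. A leading interval was present at 11261 genes in all, and one shared by several genes was counted once. Of these intervals, 156 were higher and 377 lower without Ppara and 372 higher and 554 lower without Cpt2. They number fewer than the genes, so these counts are not shares of 11261. The counts of the 3 lists were not tested against them. None of the 3 lists had a call for the interaction or for H3K4me1.

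Slc2a9 and Pklr had the widest ranges of genotype means at their leading H3K27ac interval, 2.91 and 0.76 on the centred log2 scale. The leading intervals whose profile over the 8 libraries was most like that of Slc2a9, among 8211, belonged to Rgn (Pearson r = 0.980), to Afmid and Birc5 (0.977, 1 shared interval) and to Ttc7b (0.963). Their shape was like but their range was not: Rgn had folds of 14.2 to 25.3 where Slc2a9 had 3.18 to 29.8. For Pklr they were Adck1 (0.980), Slc40a1 (0.969) and Krt8 (0.965). These coefficients are over 8 libraries that share their replicate structure and serve as a description.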

How the data were processed

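Chromatin of whole fasted liver was profiled by ChIP-seq for H3K27ac and H3K4me1 (2 livers per genotype, 8 libraries per mark) and H3K9ac (2 libraries). Reads were aligned with BWA to mm10 and peaks called with MACS2 2.1.0, per the submitters' processing notes. The deposited narrowPeak lists give for each peak a fold (ratio) over background and a -log10 q, both as the authors' peak caller wrote them, and were called per library. The consensus tables deposited for each mark give interval coordinates, and for H3K9ac also the 2 libraries' own intervals. The lists hold no counts, so depth, and with it counting error, is unknown. Pooled inputs were not analysed here.

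Each consensus interval took the highest fold of the peaks sharing at least 1 base with it in a library. log2 folds of intervals called in all 8 libraries were centred on each library's median and fitted with limma 3.58.1 (R 4.3.3; lmFit, eBayes with a trend) with terms for Ppara, Cpt2 and their interaction, and p-values were adjusted by Benjamini-Hochberg over all intervals at a threshold of 0.05. Intervals called in fewer libraries were counted, not tested. The fit was tested on simulated data. Length under peaks was summed over the peaks with a midpoint in the window and tested with an exact permutation test. Tables were handled in Python 3.11.15.

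Genes, their bodies and promoters came from the RefSeq tables (GRCm38.p6, the same chromosome coordinates as mm10). The members and lists were chosen with earlier results of these data known. The intervals named are each gene's leading interval per mark, those past the threshold and those called by Ppara or Cpt2 state alone; others were named after their values were seen. Further pathway genes are named where their leading interval passed, up to 3 per mark, effect and direction (1 such gene is not reported here), and like profiles as the 3 with the highest Pearson r for the 2 members of widest range. Animal numbers in the peak names are shared between marks, so both marks come from the same livers. The labels give each liver as a separate replicate.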

Additional observations from a re-analysis of the deposited data

How the results depend on the processing

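Of the calls, the fall of H3K27ac at Slc2a9 without Ppara held under all alternatives run, with differences of -1.30 to -1.02, and its fall without Cpt2 under all but the peak width covariate (-1.57, adjusted p = 0.575). The H3K27ac widths of that covariate did not overlap between Cpt2 states, so a Cpt2 call lost with it decides neither way. The count of member H3K27ac intervals past the threshold for Ppara, 2, became 4 with uncalled values filled and 1 with a window of 5 kb, which leaves out the interval beyond Slc2a2, and ranged from 1 to 3 when one liver was left out; the 3 came without WT replicate 1 and added a Gys2 interval (1.02, adjusted p = 0.0281 by limma) that the other WT liver and all 6 knockout livers had. That for Cpt2, 2, became 0 with the covariate, 5 with filling (which gives uncalled livers the lowest fold and so fixes the direction at intervals they lack) and 1 at a minimum -log10 q of 10, and ranged from 1 to 2 over left-out livers. For H3K4me1 and Ppara the count of 0 ranged from 0 to 5 over left-out livers. A minimum overlap of 50% changed no count. Counts of genes whose covered length separated, compared after the data were seen, ranged over left-out livers from 2 to 4 (H3K27ac, lower without Cpt2), 0 to 1 (H3K27ac, Ppara), 1 to 3 (H3K4me1, lower without Cpt2) and 0 to 3 (H3K4me1, Ppara). Those of length lower in every knockout than in WT ranged from 5 to 6 (H3K27ac) and 3 to 4 (H3K4me1), and the H3K4me1 count of 1 in the other direction became 0 at a minimum -log10 q of 10. With 2 livers a group, a group with 1 left out is taken to vary like the others. The causes of these changes were not tested.

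Signs turned only at leading intervals that passed in neither fit. Without centring the Khk H3K27ac differences were 0.0037 for Ppara and 0.20 for Cpt2, and with quantile normalization the first was 0.025. With the peak width covariate H3K4me1 differences turned at Slc2a9 (Cpt2, 0.0047), Pklr (Ppara, 0.11), Pfkfb1 (Ppara, -0.072) and Gys2 (Ppara, 0.28). Ranges over left-out livers that crossed 0 are -0.32 to 0.024 (H3K27ac Gckr, Ppara), -0.11 to 0.059 (H3K27ac Khk, Ppara), -0.15 to 0.024 (H3K27ac Khk, Cpt2), -0.16 to 0.072 (H3K27ac Gys2, Ppara), -0.042 to 0.20 (H3K27ac Pygl, Cpt2), -0.38 to 0.064 (H3K4me1 Slc2a9, Cpt2), -0.41 to 0.054 (H3K4me1 Pklr, Ppara), -0.43 to 0.034 (H3K4me1 Pklr, Cpt2), -0.12 to 0.40 (H3K4me1 Pfkfb1, Ppara), -0.079 to 0.41 (H3K4me1 Pfkfb1, Cpt2), -0.19 to 0.13 (H3K4me1 Gys2, Ppara) and -0.14 to 0.0063 (H3K4me1 Pygl, Ppara).

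Livers with the same replicate number did not deviate together: correlations of their deviations were -0.06 to 0.17 for H3K27ac and -0.49 to 0.10 for H3K4me1. The -0.49 was between Cpt2 L-/- and Ppara -/-, where livers of unlike replicate number deviated together. Cpt2 L-/- replicate 1 and Ppara -/- replicate 2 had lists of 41.4 and 42.7 Mb, against 53.5 and 53.3 Mb for their partners. A block by replicate number does not take up such a deviation. With the replicate number as a block the member counts were 2 for Ppara, 2 for Cpt2 and 0 for the interaction in H3K27ac, and 0 for all 3 in H3K4me1. Among all H3K27ac intervals the blocked fit called 642 as higher and 848 as lower by Ppara state, and 1024 and 1509 by Cpt2 state. It called 0 in H3K4me1, where the unblocked fit called 9 as higher and 16 as lower without Ppara.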
